A study of Mus musculus with 4 samples.

Results

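Maf, Rora, Runx3, Tbx21, Eomes, Id2, Sox13, Zbtb16 and Gata3 encode transcription factors, or in the case of Id2 a partner of such factors, that set the lineage and effector type of gamma delta T cells, innate lymphoid cells and intraepithelial lymphocytes. Their transcripts were read on every probe set of the array that carries 1 of these 9 symbols and no other, which gave 28 probe sets, of 34958 probe sets that carry a single symbol and represent 18194 genes. The cells were gamma delta intraepithelial lymphocytes, T cells lodged in the gut epithelium, isolated by sorting from colons of C57BL/6 mice raised under conventional conditions. There were 2 arrays of cells from DSS-treated mice and 2 of cells from untreated mice. The DSS-treated mice drank 2% dextran sulfate sodium, a polymer toxic to the lining of the colon, for 5 days and ordinary water for the next 3 days, and the untreated mice received nothing. Age, sex, the number of mice behind an array and the sort gate are not given in the labels, and nothing there says whether replicates came from separate animals, so the p-values cover the spread among the arrays at hand, and that spread may be technical.

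Lymphocytes of this kind take on an effector type early and keep it, and a few DNA-binding factors hold that choice. Tbx21 (T-bet) and Eomes drive the type 1 program of interferon gamma and killing, Rora, Maf and Sox13 belong to the type 17 program, and Gata3 to the type 2 program. Runx3 acts in CD8 and intraepithelial T cells, Zbtb16 (PLZF) in innate-like T cells, and Id2 blocks E proteins in innate lymphoid cells and effector T cells.

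Signals are deposited linear intensities, with no unit beyond brightness. The array medians were 157.1 and 163.3 on the DSS arrays and 193.8 and 213.9 on the untreated arrays. A probe set was tested if, on 2 or more of the 4 arrays, its signal was above the array median. Of the 28 factor probe sets 17 passed, 6 lay above the median on all 4 arrays and 5 on none. Detection calls were not used here, so a signal under the median cannot be set apart from background. Levels of different genes are not ranked, because probes differ in brightness per transcript, and a summed signal is weighted toward its brightest probe sets.

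Tbx21 and 1 probe set each of Runx3, Rora and Id2 lay well above the array medians on all 4 arrays, and the differences between DSS and untreated samples were mostly within the spread of the arrays. Among the 17 tested probe sets 0 passed limma at an adjusted p of 0.05, against 0% of all 24483 probe sets tested, and 1, a Maf probe set, had an unadjusted p under 0.05, against 7.26% of all. Both DSS arrays lay above both untreated arrays for 5 of the 28 probe sets (17.9%), against 13.6% of all 45037 probe sets. They lay below both for another 5 (17.9%), against 25.4% of all. The shares of the factors are near those of the whole array, and the median log2 difference, DSS minus untreated, was -0.05 over the factor probe sets and -0.16 over all probe sets. An exact permutation test of a single value, 2 arrays against 2, cannot give a two-sided p below 0.333.

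**Figure D1:**
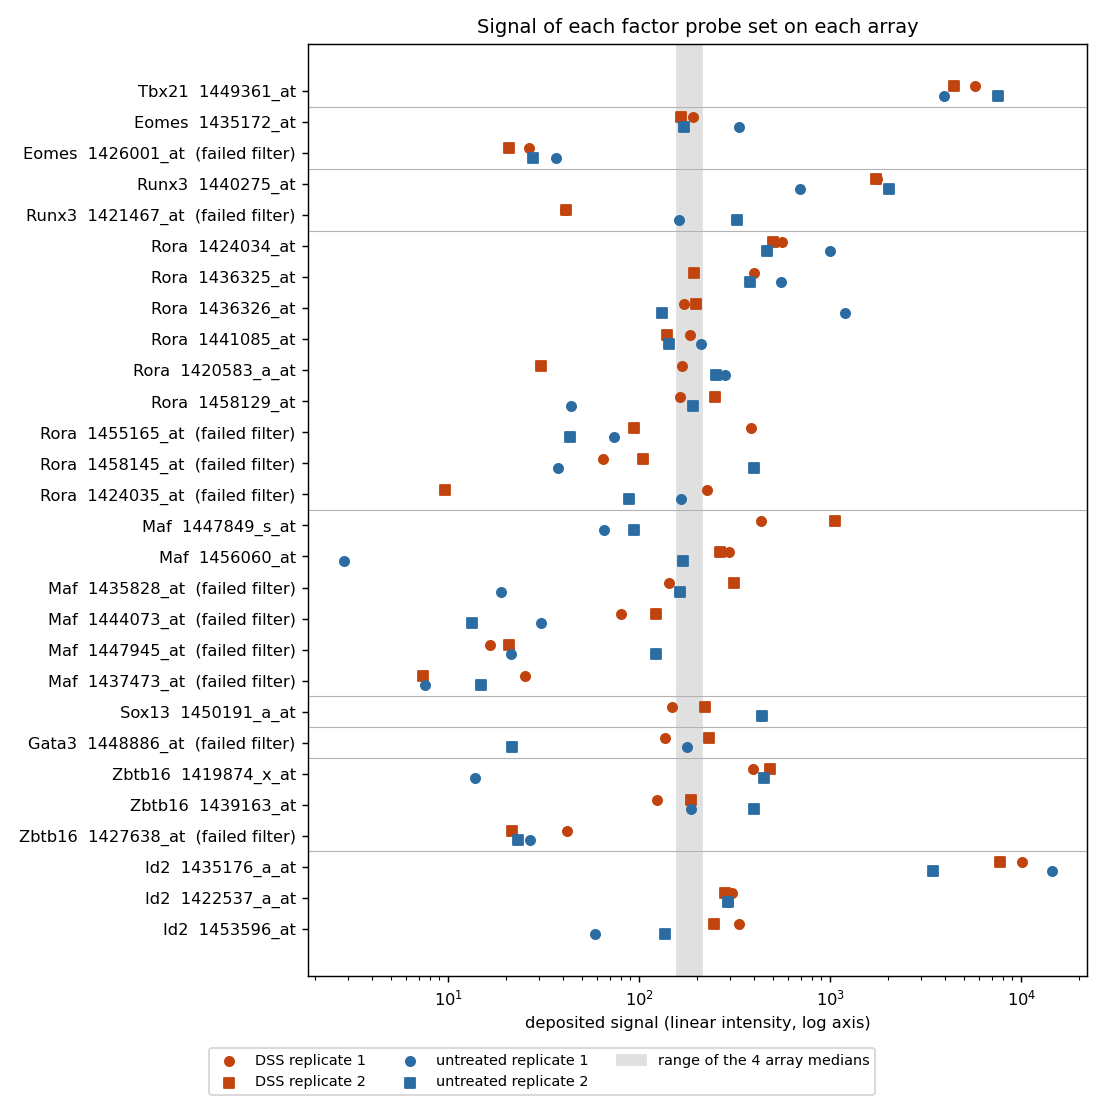
Deposited signal (x, log axis, linear intensity) of each of the 28 factor probe sets (rows) on the 2 DSS arrays (orange) and the 2 untreated arrays (blue), with circles for replicate 1 and squares for replicate 2. The grey band spans the 4 array medians, 157.1 to 213.9. Tbx21 and 1 probe set each of Runx3, Rora and Id2 sit well to its right on all arrays, while most Maf, Eomes and Zbtb16 points lie in or left of it.

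The arrays differed within groups as well as between them. Over all tested genes the standard deviation between replicates was 0.52 log2 for the DSS pair and 0.82 for the untreated pair. For 12 of the 17 tested factor probe sets the larger of the gaps within a group was that of the untreated arrays, as for 16067 of all 24483 probe sets tested. The median ratio of the brighter to the dimmer array, over the tested factor probe sets, was 1.31 for the DSS pair and 2.13 for the untreated pair. Over all probe sets tested it was 1.34 and 1.71. Hybridisation controls, transcripts added to each sample before hybridisation, averaged 14372 and 15271 over 18 probe sets on the DSS arrays and 82269 and 59067 on the untreated arrays. These controls therefore differed between the groups, for a reason that was not tested. The part of array processing in any difference cannot be told apart from that of DSS. The ratio of 3′ to 5′ signal of the beta actin control was 15.97 and 10.56 on the DSS arrays. On the untreated arrays it was 14.69 and 23.01. The part of this 3′ weighting in disagreements between probe sets of 1 gene, such as those of Runx3, was not tested.

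Tbx21 encodes T-bet, the T-box factor that switches on interferon gamma and cytotoxic genes. Its single probe set had signals of 5719 and 4449 in DSS samples and 3936 and 7516 in untreated samples. All 4 values were far above the array medians, and the untreated values lay on either side of the DSS values. The log2 difference was -0.11 ± 0.44 (SE, n = 2 per group), with a 95% interval of -1.15 to 0.93 and an adjusted p of 0.954 from limma. The interval spans roughly a halving to a doubling of signal, so these arrays do not show that the level was the same. After scaling to a common array median the estimate was 0.24.

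Eomes, the T-box relative of Tbx21 that acts with it in NK cells and memory CD8 T cells, was dim. Its brighter probe set had signals of 192.3 and 164.8 in DSS samples and 332.2 and 171.3 in untreated samples, with a log2 difference of -0.37 ± 0.62 and an adjusted p of 0.873 (limma). DSS replicate 1 lay between the untreated values. The other Eomes probe set had 26.5 and 20.7 in DSS samples and 36.8 and 27.7 in untreated samples, under the array median on all 4 arrays. Both DSS values were the lower ones there, in a range where signal cannot be told from background. Of the T-box relatives in the list 12 were on the array, and 4 of these passed the filter. Tbx6, which acts in the embryonic mesoderm, had the smallest p of them, with 264.7 and 296.2 in DSS samples and 575.3 and 630.7 in untreated samples (log2 difference -1.02, limma adjusted p = 0.649).

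Runx3 represses Cd4 and supports CD8 expression and the intraepithelial program, and it was read on a pair of probe sets that differed from each other. The brighter had signals of 1752 and 1744 in DSS samples and 695.4 and 2021 in untreated samples. The DSS values were nearly equal and fell between the untreated values. Its log2 difference was 0.54 ± 0.55, with a 95% interval of -0.74 to 1.82 and an adjusted p of 0.788 (limma). The dimmer probe set had 41.1 and 41.3 in DSS samples and 162.2 and 326 in untreated samples. Both DSS values were lower, a log2 difference of -1.85, the most negative of the 28. It exceeded the median on 1 array only and was not tested.

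RefSeq lists a pair of transcription starts for Runx3, known as its distal and proximal promoters, which give proteins with different first residues. Their windows are shown because the 2 probe sets of the gene differ in sign. No probe sequences were used here, so which transcript each probe set reads is not known. Each window runs from 250 bases before to 50 after the start, on the plus strand of GRCm38.p6, 5′ to 3′, and capitals mark ACCACA, the core letters of the RUNX motif, searched on both strands (TGTGGT on the other).
Runx3 distal window, chr4:135120395-135120694: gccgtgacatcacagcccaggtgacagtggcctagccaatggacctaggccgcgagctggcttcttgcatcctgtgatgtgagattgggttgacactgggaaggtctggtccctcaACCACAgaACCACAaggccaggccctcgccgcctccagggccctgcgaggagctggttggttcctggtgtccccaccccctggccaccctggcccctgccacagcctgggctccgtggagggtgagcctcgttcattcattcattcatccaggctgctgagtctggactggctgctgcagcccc
Runx3 proximal window, chr4:135152295-135152594: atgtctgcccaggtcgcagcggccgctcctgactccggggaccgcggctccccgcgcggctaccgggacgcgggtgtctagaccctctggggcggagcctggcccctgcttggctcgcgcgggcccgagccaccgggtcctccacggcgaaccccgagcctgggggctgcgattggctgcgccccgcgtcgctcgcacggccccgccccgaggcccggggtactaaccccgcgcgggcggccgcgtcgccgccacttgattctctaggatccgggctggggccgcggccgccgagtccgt
The distal window holds 2 matches, both on the plus strand, and the proximal window holds 0, while 16.8% of 32851 such windows of all genes hold at least 1. The windows listed for Tbx21, Eomes, Rora, Sox13, Gata3 and Id2 hold 0. A match describes the letters only and says nothing on binding in these cells.

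Cbfb, the beta subunit that every RUNX protein binds for stable DNA contact, had 7124 and 9090 in DSS samples and 4882 and 3546 in untreated samples. Both DSS values were higher, with a log2 difference of 0.95 ± 0.39 (unadjusted p = 0.0454, adjusted p = 0.649, limma). Runx1, needed in early T cell development, had 440.9 and 336.8 in DSS samples and 477.3 and 647 in untreated samples on its brightest probe set (-0.49), and its others gave -1.84 to 0.68. Runx2 was not analysed here.

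Maf encodes c-Maf, a basic leucine zipper factor needed for gamma delta T cells that make IL-17, and also made by macrophages and several kinds of helper T cell. It had the most positive difference of the factors, 2.69 log2, on the probe set 1447849_s_at. Signals there were 436.3 and 1065 in DSS samples and 65.4 and 93.96 in untreated samples. Both DSS values exceeded both untreated values, which lay under their array medians. The log2 difference was 2.69 ± 0.61, with a 95% interval of 1.25 to 4.14, an unadjusted p of 0.00293 and an adjusted p of 0.666 (limma). The ending _s_at marks probes that can bind more than 1 transcript, so the value is uncertain.

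The other Maf probe sets were dimmer. On 1456060_at signals were 296.5 and 264.7 in DSS samples and 2.84 and 170.3 in untreated samples, so 1 untreated array decides the size of the difference. It was 1.89 ± 1.05 over all arrays, 0.63 without untreated replicate 1 and 3.16 without untreated replicate 2. The probe set 1444073_at had 79.9 and 121.8 in DSS samples and 30.7 and 13.3 in untreated samples, all under the array medians. For 1435828_at the signals were 144.1 and 312 in DSS samples and 19 and 162.9 in untreated samples, which overlap. The remaining Maf probe sets gave log2 differences of 0.14 and -0.84, with signals under the median on all arrays. In all, 5 of the 6 Maf estimates were positive. Both DSS arrays were higher for 3, against 13.6% of all probe sets, and lower for 1, against 25.4%. Probe sets of 1 gene are not independent of each other. Of the 6, 3 lay under the median on all 4 arrays. The 2 that passed the filter did so through the DSS arrays alone, so the filter itself favours a positive difference there.

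Most tested markers of macrophages and dendritic cells were, like the brightest Maf probe set, higher on both DSS arrays. The summed signal of 17 tested markers was 68574 and 95202 in DSS samples and 12686 and 6612 in untreated samples, and 15 of the 17 lay higher on both DSS arrays, against 17.2% of all 12424 genes tested. Their median log2 difference was 2.12, against -0.07 over all genes. Itgax, with a log2 difference of -0.13, and Spi1, with -0.19, overlapped between the groups. Of the 17, 3 passed the filter through the DSS arrays alone. Csf1r, a growth factor receptor that defines macrophages, had 33267 and 40991 in DSS samples and 4342 and 1162 in untreated samples. Without Csf1r the sums were 35306 and 54212 in DSS samples and 8344 and 5451 in untreated samples. Cd163, a scavenger receptor of tissue macrophages, lay under the median on all 4 arrays. The part of these markers in the Maf difference was not tested. In bulk samples of this kind, more cells of a type and more RNA per cell cannot be told apart.

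The small MAF proteins lack an activation domain and pair with other leucine zipper factors. Mafg had 329.4 and 400.9 in DSS samples and 169.4 and 61 in untreated samples, both DSS values being higher (log2 difference 1.53 ± 0.66, adjusted p = 0.649, limma), and 0.36 on its other probe set. Maff had 260.6 and 168.1 in DSS samples and 32.9 and 40.9 in untreated samples (1.81 ± 0.98). Like Maf, Mafg and Maff passed the filter through the DSS arrays alone. Mafk, read well above the median, overlapped between groups, with 939.9 and 597.2 in DSS samples and 868.9 and 1183 in untreated samples (-0.42 ± 0.43).

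Rora encodes ROR alpha, a nuclear receptor that acts in type 17 cells and is needed for group 2 innate lymphoid cells. It had 9 probe sets, whose log2 differences ran from -1.42 to 1.36, 7 of them negative. The brightest, 1424034_at, had 561.5 and 502.7 in DSS samples and 1002 and 467.8 in untreated samples. The DSS values lay between the untreated values, and the difference was -0.35 ± 0.49 (95% interval -1.51 to 0.80, adjusted p = 0.85, limma).

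Among its other probe sets, 1436326_at differed 9.05-fold between the untreated arrays, with 171.1 and 197.4 in DSS samples and 1196 and 132.2 in untreated samples. Its difference was -1.06 ± 0.90 with all arrays and 0.39 without untreated replicate 1. The probe set 1420583_a_at had 168.4 and 30.5 in DSS samples and 282 and 253.4 in untreated samples. Both DSS values were lower there, but they differed 5.52-fold from each other. On 1455165_at the DSS values of 383.5 and 94.2 both exceeded the untreated values of 73.6 and 43.3. The 9 probe sets therefore gave no common direction.

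Sox13 is an HMG-box factor that marks gamma delta thymocytes bound for IL-17 production. Its single probe set had signals of 148.1 and 221.5 in DSS samples and 434.2 and 440.3 in untreated samples. The untreated values were close to each other and both DSS values were lower. The log2 difference was -1.14 ± 0.50, with a 95% interval of -2.31 to 0.04, an unadjusted p of 0.0561 and an adjusted p of 0.666 (limma). DSS replicate 1 lay under its array median. Scaling to a common median gave -0.83 and quantile normalization -0.88, and leaving out any 1 array gave -1.38 to -0.89. Sox4, another HMG-box factor of these cells, had 179.1 and 264.9 in DSS samples and 269.3 and 299.6 in untreated samples (-0.34 ± 0.53), and its other probe sets gave -0.91 to 0.31.

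Gata3, the zinc finger factor of type 2 cells and of early T cell development, had 1 probe set, which did not pass the filter. Signals were 135.9 and 232.3 in DSS samples and 177 and 21.5 in untreated samples. Only DSS replicate 2 exceeded its array median, and the log2 difference of 0.99 was 0.01 without untreated replicate 2. Of the relatives and cofactors of Gata3, 5 were tested and 3 were lower on both DSS arrays, against 23.8% of all genes tested. Gata5, 1 of these 3, passed the filter through the untreated arrays alone, so the filter itself adds to that count. Gata2, a factor of blood stem cells and mast cells, had 240.2 and 261.7 in DSS samples and 341.6 and 548.7 in untreated samples (-0.72 ± 0.48), and -2.10 on its other probe set.

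Zbtb16 encodes PLZF, the BTB zinc finger factor of NKT cells and other innate-like T cells. On 1419874_x_at signals were 393.2 and 481.9 in DSS samples and 13.8 and 451 in untreated samples. DSS replicate 1, DSS replicate 2 and untreated replicate 2 were alike, and untreated replicate 1 stood alone. The log2 difference of 1.65 ± 1.04 was -0.05 without untreated replicate 1 and 3.35 without untreated replicate 2, so it rests on 1 array. The ending _x_at marks probes that can bind unrelated transcripts. On 1439163_at signals were 123.7 and 187.6 in DSS samples and 187 and 397.7 in untreated samples, with a difference of -0.73 ± 0.64. The third probe set lay under the median on all 4 arrays. Zbtb7b (ThPOK), the CD4-lineage relative that opposes Runx3, had 637.7 and 638.4 in DSS samples and 463.3 and 892.6 in untreated samples (-0.01 ± 0.46), and 0.16 on its other probe set.

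Id2 binds E proteins and keeps them off DNA. Its brightest probe set, 1435176_a_at, had 10115 and 7725 in DSS samples and 14500 and 3444 in untreated samples. The untreated values differed 4.21-fold and enclosed the DSS values. The log2 difference was 0.32 ± 0.66 (95% interval -1.22 to 1.86, adjusted p = 0.9, limma), and it was 1.35 without untreated replicate 1 and -0.71 without untreated replicate 2. On 1422537_a_at all arrays were nearly equal, with 304.9 and 279.9 in DSS samples and 291.1 and 293.5 in untreated samples. On 1453596_at signals were 332.3 and 246.9 in DSS samples and 58.7 and 137.3 in untreated samples, both DSS values being higher (1.36 ± 0.71, adjusted p = 0.666, limma). That probe set passed the filter through the DSS arrays alone.

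The E proteins that Id2 binds also showed no call. Tcf12 (HEB) had 2746 and 1768 in DSS samples and 1838 and 1279 in untreated samples (0.51 ± 0.43), with -0.43 to 1.82 on its other probe sets. Tcf3 (E2A) had 30.5 and 174.6 in DSS samples and 431.7 and 248.2 in untreated samples on its brightest probe set (-1.67 ± 0.82), with -0.23 and -0.05 on the others. Id3, a relative of Id2, had 156.1 and 401.2 in DSS samples and 453.7 and 339.2 in untreated samples (-0.57 ± 0.57).

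**Figure D2:**
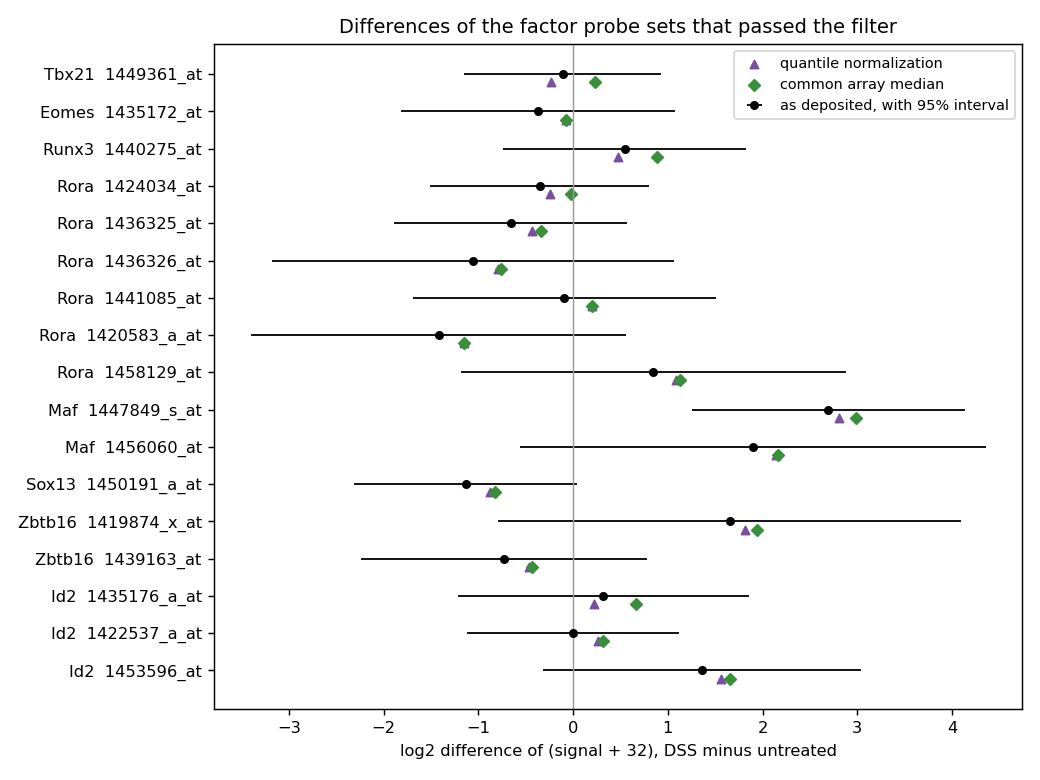
Log2 difference of signal + 32, DSS minus untreated (x), for the 17 factor probe sets that passed the filter (rows). Black points and bars are the values as deposited with their 95% intervals, triangles the values after quantile normalization and diamonds those after scaling to a common array median. The interval of Maf 1447849_s_at, at 1.25 to 4.14, excludes 0 before adjustment, but that probe set passed the filter through the DSS arrays alone.

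Leaving out 1 untreated array brought some factors past the threshold, as it did many other probe sets. Without untreated replicate 1, limma called 2 of the 17 factor probe sets (11.8%), against 11.3% of all. These were Maf 1447849_s_at (2.51, adjusted p = 0.00328) and Id2 1435176_a_at (1.35, adjusted p = 0.00509). Without untreated replicate 2 it called 4 (23.5%), against 5.4% of all. These were Maf 1447849_s_at (2.88, adjusted p = 0.00273), Runx3 1440275_at (1.29, adjusted p = 0.0305), Rora 1436326_at (-2.51, adjusted p = 0.00338) and Zbtb16 1419874_x_at (3.35, adjusted p = 0.00909). In these fits the lone untreated array is assumed to vary like the DSS pair. Over all tested genes, however, that pair had a standard deviation of 0.52 log2, against 0.82 for the untreated pair. The Maf probe set entered the test through its DSS signals alone, so its calls are given as values only. Without either DSS array 0 of the 17 were called.

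The wider sets of regulators showed no call either. Of 28 tested relatives and partners of the 9 factors 0 passed adjustment and 2 had an unadjusted p under 0.05, against 7.52% of all genes tested. Of these relatives 4 lay higher on both DSS arrays, against 17.2% of all genes, and 10 lower, against 23.8%. Their median log2 difference was -0.28 as deposited and 0.06 after common-median scaling, which moves the median of all genes to 0.25, so its sign depends on the scaling. Maff, Mafg and Sox6, counted as higher, and Gata5, counted as lower, passed the filter only through the group where they were brighter. Of 35 other lymphocyte transcription factors 0 passed and 3 had an unadjusted p under 0.05 (limma), against 7.52% of all genes tested. On both DSS arrays 9 of the 35 lay higher, against 17.2% of all genes, and 3 lower, against 23.8%. The median of the 35 was 0.08, against -0.07 over all genes.

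Egr3, induced by T cell receptor signals, had 1134 and 830.2 in DSS samples and 449.3 and 394.1 in untreated samples (1.15 ± 0.41, adjusted p = 0.649, limma), and 0.25 on its other probe set. Rbpj, the DNA-binding partner of Notch, had 4712 and 5629 in DSS samples and 2266 and 3138 in untreated samples (0.94 ± 0.39), and 0.64 and -0.38 on its other probe sets. Ahr, the aryl hydrocarbon receptor that intraepithelial lymphocytes need, had 6245 and 6389 in DSS samples and 4403 and 2210 in untreated samples (1.01 ± 0.45). Its other probe set gave -0.06. Zeb2, a repressor that acts with T-bet in effector T cells, had 210.8 and 257.7 in DSS samples and 537.7 and 768.8 in untreated samples on its brightest probe set (-1.35 ± 0.45), and -0.05 to 0.68 on the others.

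Effector genes of the programs named above were read beside the factors, whether or not the factors control them. Of 12 tested type 1 genes 0 passed, with a median of 0.12. Gzmb, the killing protease granzyme B, had 35792 and 40271 in DSS samples and 65870 and 60139 in untreated samples (-0.73 ± 0.34, adjusted p = 0.651, limma). Fasl, the death ligand, had 15095 and 11925 in DSS samples and 11089 and 3875 in untreated samples (1.03 ± 0.54), and 1.27 on its other probe set. The chemokine Ccl5 was lower on both DSS arrays (-1.48 ± 0.33, unadjusted p = 0.00309, adjusted p = 0.565, limma).

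Of 6 tested type 17 genes 0 passed, with a median of 0.31. Il17a, the signature cytokine, had 367.8 and 1529 in DSS samples and 374 and 239.1 in untreated samples (1.25 ± 0.68, adjusted p = 0.671, limma). DSS replicate 2 alone was high in Il17a, and DSS replicate 1 lay within the untreated range. Ccr2, a chemokine receptor of type 17 gamma delta cells and of monocytes, had 481.7 and 649.6 in DSS samples and 31.1 and 297 in untreated samples (2.04 ± 0.82), with -0.40 to 1.89 on its other probe sets. Ccr6, a further receptor of type 17 cells, had 111.8 and 453.5 in DSS samples and 380.8 and 410.3 in untreated samples (-0.69 ± 0.66).

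Only 2 of 7 type 2 genes on the array were tested. Crlf2, a receptor chain for thymic stromal lymphopoietin, had 6367 and 6205 in DSS samples and 3799 and 3613 in untreated samples (0.76 ± 0.36, adjusted p = 0.651, limma). Il13 lay under the median on all 4 arrays.

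**Figure D3:**
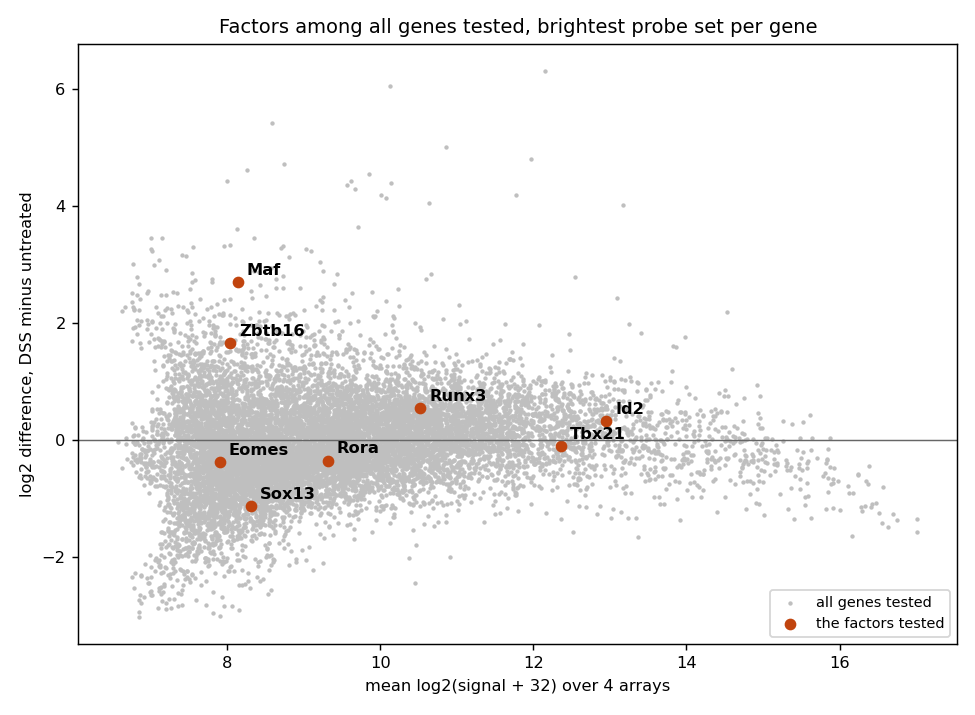
Log2 difference, DSS minus untreated (y), against mean log2(signal + 32) over the 4 arrays (x) for the 12424 genes tested, each on its brightest probe set (grey), with the 8 factors tested marked and named. Maf at 2.69 lies near the upper edge of genes of its brightness, and Tbx21, Id2 and Rora lie close to 0.

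T cell genes were present on all arrays. The summed signal of 10 tested T cell markers was 130597 and 137754 in DSS samples and 178605 and 253251 in untreated samples. Itgae (CD103), the integrin that holds these cells in the epithelium, set that order, with 43558 and 43518 in DSS samples and 101512 and 98460 in untreated samples, and its other probe set gave 0.52. Without Itgae the sums of the other 9 genes overlapped, at 87039 and 94236 in DSS samples and 77093 and 154791 in untreated samples. Of the 10 genes 2 lay higher on both DSS arrays, against 17.2% of all genes tested, and 2 lower, against 23.8%. The other 6 overlapped. The median log2 difference of the 10 was -0.16, against -0.07 over all genes. Trdc, the constant gene of the delta receptor chain, was not analysed here, so these markers do not set gamma delta apart from other T cells. NK and innate lymphoid cell markers, which express many of the same factors, summed to 11077 and 11374 over 5 genes in DSS samples and 8377 and 6061 in untreated samples, both DSS sums being higher. Epithelial markers summed to 14962 and 12470 over 10 genes in DSS samples and 13312 and 8629 in untreated samples. Neutrophil markers summed to 1007 and 1841 over 5 genes in DSS samples and 1599 and 1135 in untreated samples, with Cxcr2 and Camp under the median on all arrays.

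Markers of B cells and of stroma and vessels overlapped in sum, and the sums of alpha beta T cell markers differed through 1 gene. Over 5 alpha beta T cell genes the sums were 1583 and 1082 in DSS samples and 1723 and 1669 in untreated samples. Cd8b1, the CD8 beta chain, had 137.4 and 98.6 in DSS samples and 721.5 and 727.3 in untreated samples and passed the filter through the untreated arrays alone. Without it the other 4 genes summed to 1446 and 982.9 in DSS samples and 1002 and 941.2 in untreated samples. Over 5 B cell genes they were 1807 and 2545 in DSS samples and 2097 and 2874 in untreated samples, and over 3 stromal and vessel genes 559.8 and 944.8 in DSS samples and 801.9 and 738.6 in untreated samples. Cdx1 of the epithelial list and Pdgfra and Pecam1 of the stromal and vessel list lay under the median on all 4 arrays. The part of any of these markers in the values of the factors was not tested.

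**Figure D4:**
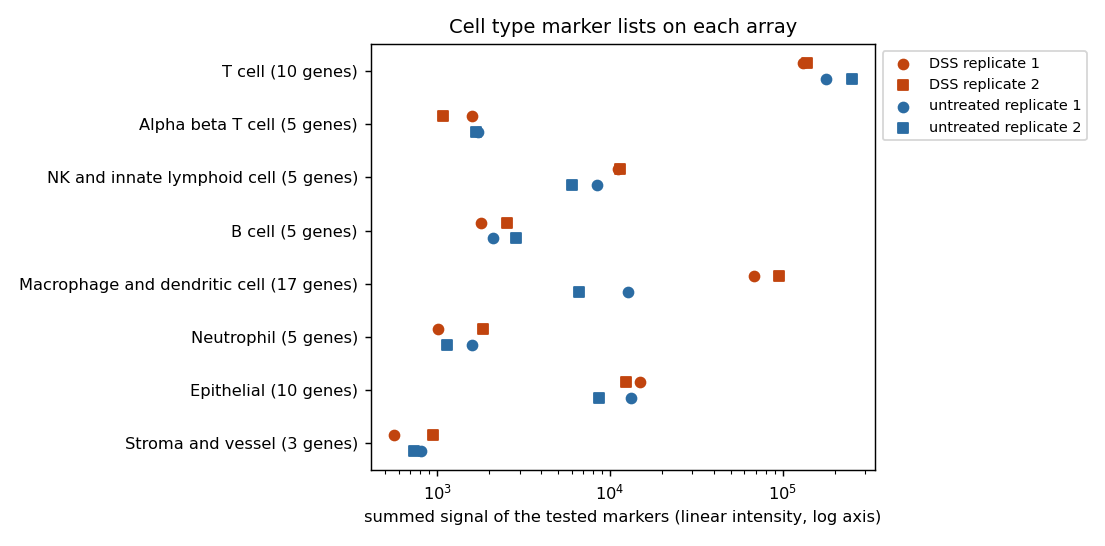
Summed signal (x, log axis, linear intensity) of the tested markers of each cell type list (rows, with the number of genes) on the 2 DSS arrays (orange) and the 2 untreated arrays (blue), with circles for replicate 1 and squares for replicate 2. The macrophage and dendritic cell list shows the widest gap, at 68574 and 95202 in DSS samples against 12686 and 6612 in untreated samples.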

How the data were processed

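Gamma delta intraepithelial lymphocytes of mouse colon were profiled on 4 single-colour arrays, 2 of DSS and 2 of untreated mice, with biotin-labelled RNA amplified by RiboAmp, per the labels' protocols. The authors deposited linear intensities with 1 value for each probe set. Per the submitters' processing notes GCOS made them, and the sources used here do not give its algorithm or settings. Each array averaged 500 after the lowest and highest 2% were dropped, so a common scaling had been applied.

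A platform table named 34958 of 45101 probe sets with 1 symbol, 932 with several and 9211 with none. By gene number 34754 matched RefSeq, which updated 0 symbols. Signals were taken as log2(signal + 32), a scale that understates changes of dim genes. Probe sets above their own array's median on at least 2 of 4 arrays were tested, all 24483 for the factors and, for gene lists, the brightest per gene (12424). The groups were compared with limma 3.58.1 under R 4.3.3 (lmFit, eBayes with intensity trend, group only, Benjamini-Hochberg at 0.05). This step was also run on simulated data in which both groups had the same spread, unlike the arrays here. The number of arrays limits the precision.

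All factors are named. Of each gene list at most the 4 genes with the smallest p are named, plus relatives or partners beside a factor, and of each marker list up to the 2 brightest and any under the median on all arrays. Il13, Itgax and Spi1, and Cd8b1 and Itgae as the genes that set their lists' sums, were singled out after their values were seen. The members and lists were chosen with earlier results of these data known. Alternatives covered scaling, pseudocount, filter, variance model, probe set choice, replicate block and leaving out each array. Those for gene lists, and the counts without overlap when an array is left out, were chosen after seeing the data. Promoter windows are from RefSeq (GRCm38.p6), which listed 7 of the 9 genes. Maf and Zbtb16 have no window printed.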

Additional observations from a re-analysis of the deposited data

How the results depend on the processing

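Limma called 0 genes and 0 probe sets under each scaling, pseudocount and variance model run and with no filter. With the filter on all 4 arrays it called 1 gene and 1 probe set, with a gene's probe sets averaged 3 genes, and with the replicate number as a block 67 genes and 51 probe sets, none of them factors. The block is not taken as pairing, since the labels give only numbers and the differences between replicates correlated at r = 0.05 across genes. Leaving out 1 array gave 0 to 1791 genes and 0 to 2770 probe sets, most of them without untreated replicate 1 (1791 and 2770) or untreated replicate 2 (755 and 1322), and 15 to 22 factor probe sets without overlap, against 10 with all arrays, where fewer arrays make separation easier. Maf 1447849_s_at ranged from 1.99 to 2.98 over 8 settings with all arrays that tested it, with adjusted p from 0.153 to 0.764 (limma) at probe-set level. At gene level its adjusted p (limma) was 0.0598 with the replicate block and 0.685 with no filter. The sign turned after quantile normalization for Rora 1441085_at (0.20) and Id2 1422537_a_at (0.26). After common-median scaling it turned for Tbx21 (0.24), Rora 1441085_at (0.20) and Id2 1422537_a_at (0.31). That scaling moved the median of all genes from -0.07 to 0.25, and quantile normalization moved it to 0.01. The part of these shifts in each change of sign was not tested. The sign also turned when an array was left out, with ranges of -0.57 to 0.36 for Tbx21, -0.79 to 0.0473 for Eomes 1435172_at, -0.21 to 1.29 for Runx3 1440275_at and -0.0472 to 3.35 for Zbtb16 1419874_x_at. For Rora the ranges were -0.88 to 0.17 on 1424034_at, -2.51 to 0.39 on 1436326_at and -0.33 to 0.14 on 1441085_at. For Id2 they were -0.71 to 1.35 on 1435176_a_at and -0.0563 to 0.0549 on 1422537_a_at. Signals near the array medians limit what Eomes, Gata3, Sox13, Zbtb16 and most Maf and Rora probe sets can show.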
